A study of Homo sapiens with 6 samples.

Results

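*BIRC3*, which encodes the inhibitor of apoptosis protein cIAP2, was lower in cells carrying a hairpin against *RREB1*. It is described together with 9 genes that act with it: *BIRC2* and *XIAP* of the same protein family, the NF-kappaB subunit genes *NFKB1*, *NFKB2*, *RELA* and *RELB*, the inhibitors *NFKBIA* and *TNFAIP3*, and the adaptor *TRAF2*. The 10 genes were matched by symbol and make up 10 of 56991 genes in the count tables. They were selected on results of the same contrast that is described here, in which *BIRC3* was already known to be lower, so the levels and differences of these 10 genes are a description and carry no test.

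HEK293T is a human embryonic kidney line that expresses the SV40 large T antigen. RNA-seq was performed on 3 libraries from cells expressing a control hairpin (sh-control) and 3 from cells labelled as expressing a hairpin against *RREB1* (sh-*RREB1*), a zinc finger transcription factor. All were grown in DMEM with serum, and the hairpins were delivered by lentivirus. No stimulus of the NF-kappaB pathway is named in the labels, 1 hairpin against *RREB1* was used, and the labels do not say whether replicates were separate cultures, so p-values measure only the spread between these libraries.

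cIAP1 (*BIRC2*) and cIAP2 are ubiquitin ligases that bind TRAF2. At the TNF receptor they build the ubiquitin chains on which the IkappaB kinase is activated, and without a signal they mark the kinase NIK for degradation and so keep the non-canonical arm of NF-kappaB off. XIAP binds and inhibits caspases directly. NF-kappaB dimers of RELA or RELB with the products of *NFKB1* or *NFKB2* are held by IkappaB proteins such as that of *NFKBIA*, and they activate genes that include *BIRC3*, *NFKBIA*, *TNFAIP3* and *NFKB2* themselves.

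The sequence before the start sites is shown for the genes of this feedback. RefSeq windows (GRCh38.p14, 250 bases before to 50 after a start) were at hand for 9 of the 10 genes, 16 windows in all, and not for *RELB*. The letters GGGNNTTTCC of an NF-kappaB site, searched on both strands, occurred in 6 of the 16 windows, which belong to *BIRC3*, *NFKBIA*, *TNFAIP3*, *NFKB1* and *NFKB2*, and in 1.91% of the 35116 windows of all genes. They did not occur in the windows of *BIRC2*, *XIAP*, *RELA* or *TRAF2*. The stretches before the start sites of *BIRC3* and of its neighbour *BIRC2*, its closest relative in the family, are shown first because the pair differed in level and in these letters. Those of *NFKBIA*, *TNFAIP3* and *NFKB1* follow, then 30 bases around each match in *NFKB2*. The stretches end before the Gencode start of the gene where that lies upstream of the RefSeq start, which trims those of *TNFAIP3*, *NFKB1* and *BIRC2*. Each is written 5′ to 3′ along the gene with the matched letters in capitals.
*BIRC3*, chr11:102317234-102317483, plus strand: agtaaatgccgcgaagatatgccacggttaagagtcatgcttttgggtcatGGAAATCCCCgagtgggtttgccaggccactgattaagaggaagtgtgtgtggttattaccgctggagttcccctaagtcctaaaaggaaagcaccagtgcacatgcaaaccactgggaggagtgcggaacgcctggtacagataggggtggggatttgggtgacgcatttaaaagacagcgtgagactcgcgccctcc
*BIRC2*, chr11:102346964-102347210, plus strand: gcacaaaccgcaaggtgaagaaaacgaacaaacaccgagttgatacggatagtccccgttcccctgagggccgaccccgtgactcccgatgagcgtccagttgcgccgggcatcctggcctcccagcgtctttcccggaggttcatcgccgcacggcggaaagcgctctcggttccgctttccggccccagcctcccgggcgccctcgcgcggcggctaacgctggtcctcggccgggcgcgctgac
*NFKBIA*, chr14:35404750-35404999, minus strand: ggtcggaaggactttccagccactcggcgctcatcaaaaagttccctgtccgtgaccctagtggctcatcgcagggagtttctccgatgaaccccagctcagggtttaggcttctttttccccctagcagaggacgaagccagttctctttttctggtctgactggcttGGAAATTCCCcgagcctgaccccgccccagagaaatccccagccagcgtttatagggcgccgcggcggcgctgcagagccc
*TNFAIP3*, chr6:137867009-137867213, plus strand: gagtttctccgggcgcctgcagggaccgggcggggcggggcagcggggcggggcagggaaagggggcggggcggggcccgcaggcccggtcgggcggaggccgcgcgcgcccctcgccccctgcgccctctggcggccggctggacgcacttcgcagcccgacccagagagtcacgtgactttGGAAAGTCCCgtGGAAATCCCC
*NFKB1*, chr4:102501109-102501329, plus strand: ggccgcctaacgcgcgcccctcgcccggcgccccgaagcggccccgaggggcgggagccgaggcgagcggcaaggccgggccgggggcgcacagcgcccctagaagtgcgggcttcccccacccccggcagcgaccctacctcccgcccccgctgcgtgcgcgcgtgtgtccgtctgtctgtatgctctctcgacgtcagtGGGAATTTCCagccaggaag
*NFKB2*, the second start site, chr10:102394490-102394519, plus strand: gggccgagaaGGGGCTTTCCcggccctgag
*NFKB2*, the third start site, chr10:102395674-102395703, plus strand: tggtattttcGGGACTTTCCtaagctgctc
Counted to the RefSeq start, which in *TNFAIP3* and *NFKB1* lies beyond the end of the stretch shown, the match began 199 bases before it in *BIRC3*, 81 in *NFKBIA*, 67 and 55 in *TNFAIP3*, 49 in *NFKB1*, and 78 and 21 before the second and the third start of *NFKB2*. Of the 7 matches, 4 were on the opposite strand of the gene (those of *BIRC3*, *NFKBIA* and *TNFAIP3*), so the motif appears there as its reverse complement. The letters TGANTCA of an AP-1 site and the letters CAAACNACC, part of the motif of RREB1, were in none of the 16 windows, and in 7.71% and 0.661% of all windows. A match is no evidence of binding, and its absence says only that these letters are not in the window.

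Depth differed between libraries. Reads on the strand of a gene numbered 23362197 to 33044061 in sh-control and 12257054 to 26145877 in the sh-*RREB1*-labelled libraries. In the shallowest library, sh-*RREB1* replicate 3, 52.1% of aligned reads had several positions, compared to 3.66% to 7.63% in the others. It also had 3923750 reads on the strand opposite to genes, compared to 1207964 to 1718516 in the others. Values without this library are given below. *RREB1* itself, which checks the labels, had a level of 27.1, 25.2 and 26.6 CPM (reads per 1000000 reads on genes, scaled by TMM) with sh-control, compared to 23.7, 24.6 and 23.1 CPM in the sh-*RREB1*-labelled libraries (log2 fold change −0.14, standard error 0.13, adjusted p = 0.491, quasi-likelihood test of edgeR, adjusted by Benjamini-Hochberg over all genes). With the correction for GC content described below the value was −0.36 (standard error 0.12, edgeR adjusted p = 0.0537), and −0.37 (adjusted p = 0.0110) with the replicate number as a block as well. Over the alternatives examined for *RREB1* the adjusted p ran from 0.0110 to 0.693. GC-corrected fits with a library left out were not among them. *RREB1* was thus lower in each of the 3 libraries labelled for its hairpin. It passed the threshold of 0.01 in no fit examined, so the groups are named by their labels and each direction rests on them. Of 9 HEK293 marker genes 8 were measured, with a summed level of 735 to 769 CPM in sh-control and 1028 to 1077 CPM in the sh-*RREB1*-labelled libraries. *PAX8* had at most 3 reads in every library. B cell markers summed to 4.78 to 5.54 and 6.81 to 7.65 CPM, and macrophage and T cell markers to 0.125 to 0.221 and 0.0765 to 0.317 CPM, with *MS4A1*, *FCER2*, *CCL22*, *CD68*, *CSF1R*, *LYZ*, *CD3E*, *CD3D* and *CD247* at no more than 3 reads in every library. Most of the B cell sum was *CR2*, at 3.60, 3.35 and 3.49 CPM with sh-control and 5.71, 5.13 and 5.94 CPM in the other group. Of the 4 B cell markers measured, 3 had log2 fold changes above 0, and *HLA-DRA* had −0.55 (standard error 0.37). The part of the HEK293, B cell, macrophage and T cell markers in the results was not tested. In RNA from bulk cells, fewer cells that express a gene and less RNA of it per cell cannot be told apart.

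Over all genes, 794 of 23506 tested (3.38%) were called, which required an adjusted p under 0.01 together with a change of more than 1 in log2 in either direction. Of all genes tested 2.69% were called higher and 0.689% lower, so that 79.6% of the calls were higher. In 40.9% of the genes tested the groups did not overlap, all 3 libraries of one being above all 3 of the other. In edgeR 34.1% of the genes tested had an unadjusted p below 0.05. With the same fold, DESeq2 called 1652 of the 23506 genes, and edgeR called 2034 at an adjusted p below 0.05. Over 14483 expressed genes, those with GC-rich exons had higher log2 fold changes (Spearman's rho 0.59 across genes, which share the 6 libraries), from a median of −0.23 in the tenth of genes with the lowest GC content to 1.13 in the tenth with the highest. When each library's dependence on GC content and on gene length was removed, 706 genes were called and 60.3% of them were higher. Values before and after this correction are given for the genes named below. The correction may also remove a true difference that follows GC content.

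*BIRC3* was the member with the largest difference. It lies on chromosome 11 of GRCh38 from 102317484 to 102339403, on the plus strand (ENSG00000023445), and its exons have a GC content of 36.6%. In sh-control replicates 1, 2 and 3 it had 45, 61 and 44 reads, which is 1.95, 2.24 and 1.37 CPM. In the sh-*RREB1*-labelled libraries it had 16, 8 and 2 reads, or 0.644, 0.306 and 0.158 CPM. All 3 sh-*RREB1*-labelled libraries were below the lowest sh-control library, and the groups did not overlap. The exact Poisson intervals did not overlap between any sh-control library and replicates 2 and 3 of sh-*RREB1*, and those of sh-control replicate 3 (0.996 to 1.84 CPM) and sh-*RREB1* replicate 1 (0.368 to 1.05 CPM) did. These intervals, like the binomial ones below, cover counting error only.

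The mean level of *BIRC3* was 1.86 CPM (SD 0.445, n = 3) in sh-control, against 0.369 CPM (SD 0.249, n = 3) in the sh-*RREB1*-labelled libraries. The fitted log2 fold change was −2.19 (standard error 0.41, 95% confidence interval −3.13 to −1.26), a level 4.57-fold lower with limits of 2.4 and 8.72. It passed both thresholds of a call, as 0.689% of all genes did in that direction. Because *BIRC3* was known to be lower in this contrast when it was selected, its call is a description and no test. With the GC correction the log2 fold change of *BIRC3* was −2.0 and was also called. The median of the tenth of genes with similar GC content was −0.23.

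With each library left out in turn, *BIRC3* stayed lower but was mostly not called. Without sh-*RREB1* replicate 3, in which it had 2 reads, the log2 fold change was −1.96. It was −2.84 without sh-*RREB1* replicate 1 and −1.99 without replicate 2, and it was −2.18, −2.07 and −2.41 without sh-control replicates 1, 2 and 3. Over all genes these fits called 1118, 9 and 379 genes without sh-control replicates 1, 2 and 3. They called 25, 136 and 8 genes without sh-*RREB1* replicates 1, 2 and 3, against 794 with all libraries. Of these 6 fits *BIRC3* was called in 1, that without sh-control replicate 1, and after GC correction in 3 of 6 (−2.44 to −1.76). It had at most 61 reads in a library, which limits the precision of its value.

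**Figure D1:**
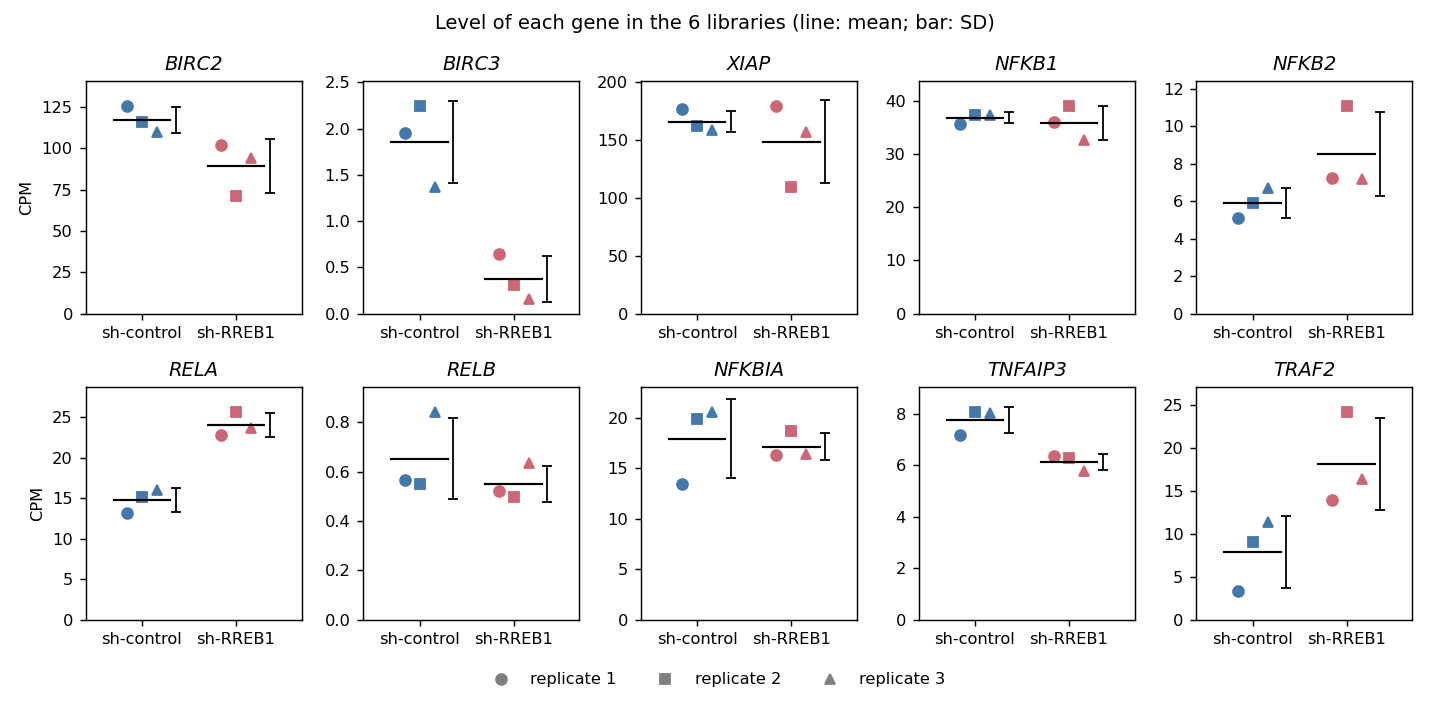
Level of each of the 10 genes in CPM (vertical axes, each from 0) in the 3 sh-control libraries (blue) and the 3 libraries labelled sh-RREB1 (red). Marker shapes are replicates, horizontal lines are means and the bars beside them SDs (n = 3). BIRC3 lay between 1.37 and 2.24 CPM in sh-control and between 0.158 and 0.644 CPM in the other group, while XIAP, NFKB1, RELB and NFKBIA overlapped between the groups.

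The other IAP genes had many more reads and smaller differences. *BIRC2* starts 7808 bases beyond the end of *BIRC3*, at 102347211 to 102378670 of chromosome 11 on the same strand (ENSG00000110330). Its level was 126, 116 and 110 CPM with sh-control, compared to 102, 71.4 and 94.5 CPM in the sh-*RREB1*-labelled libraries. The 2 groups did not overlap, but the log2 fold change was −0.39 (standard error 0.15) and −0.13 after GC correction, and *BIRC2* was not called. *BIRC3* made up 1.53%, 1.90% and 1.23% of the reads on both genes together in sh-control, and 0.625%, 0.427% and 0.167% in the sh-*RREB1*-labelled libraries. The lowest sh-control share had an exact (Clopper-Pearson) interval of 0.897% to 1.65%, and the highest share of the other group one of 0.358% to 1.01%. These shares do not depend on the scaling of the libraries, and they did not overlap between the groups, although those 2 intervals did.

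*XIAP*, the caspase inhibitor, lies on chromosome X from 123859712 to 123913972 (ENSG00000101966). Its level was 177, 163 and 159 CPM with sh-control, compared to 180, 110 and 157 CPM in the sh-*RREB1*-labelled libraries. The groups overlapped, with sh-*RREB1* replicate 2 alone well below the rest. Its log2 fold change was −0.16 (standard error 0.17), and 0.06 after GC correction, so that its direction changed with the correction.

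Other genes near *BIRC3*, searched within 250000 bases after its values were known, were not called before GC correction. *YAP1*, a transcriptional coactivator upstream of it, had a log2 fold change of 0.02 (standard error 0.18, 0.19 after correction), and *TMEM123* beyond *BIRC2* one of −0.02 (standard error 0.19, 0.23 after correction). *CFAP300* had 0.82 (standard error 0.22, edgeR adjusted p = 0.0332). After correction *CFAP300* had 1.11 (edgeR adjusted p = 0.00158) and was called, in the direction opposite to *BIRC3*.

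Of the NF-kappaB subunit genes, none was called. *NFKB1*, which encodes p105 and p50 (ENSG00000109320, chromosome 4, 102501330 to 102617302), had the fitted difference nearest to 0. Its level was 35.7, 37.4 and 37.4 CPM with sh-control, compared to 36.1, 39.1 and 32.6 CPM in the sh-*RREB1*-labelled libraries. Its log2 fold change was −0.03 (standard error 0.13, 95% interval −0.32 to 0.25), and 0.16 after GC correction.

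*RELA* encodes p65, the main activating subunit (ENSG00000173039, chromosome 11, 65653599 to 65663090, minus strand). Its level was 13.2, 15.2 and 16 CPM with sh-control, compared to 22.9, 25.7 and 23.7 CPM in the sh-*RREB1*-labelled libraries, with all of the latter above the former. The log2 fold change was 0.70 (standard error 0.15), short of the fold threshold. *RELA* has a GC content of 58.3%, and after GC correction its value was −0.04, against a median of 0.63 in the tenth of genes with similar GC content.

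*NFKB2* encodes p100, the precursor that NIK causes to be cut to p52 (ENSG00000077150, chromosome 10, 102394110 to 102402524). Its level was 5.12, 5.92 and 6.73 CPM with sh-control, compared to 7.24, 11.1 and 7.21 CPM in the sh-*RREB1*-labelled libraries. These groups did not overlap either, with a log2 fold change of 0.53 (standard error 0.22). Its direction turned with the GC correction, to −0.56.

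*RELB* encodes the partner of p52 (ENSG00000104856, chromosome 19, 45001461 to 45038192). It had only 13, 15 and 27 reads in sh-control, or 0.564, 0.552 and 0.841 CPM, and 13, 13 and 8 reads in the sh-*RREB1*-labelled libraries, or 0.523, 0.497 and 0.634 CPM. The groups overlapped, and the log2 fold change was −0.28 (standard error 0.33). It was −1.45 after GC correction, the largest shift of the 10 genes, at the highest GC content among them (63.2%). Of all reads on *RELB* 38.6% lay on the opposite strand, which were left out of these counts.

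Neither inhibitor was called. *NFKBIA* encodes IkappaB-alpha, which is resynthesised when NF-kappaB is active (ENSG00000100906, chromosome 14, 35401079 to 35404749, minus strand). Its level was 13.4, 19.9 and 20.6 CPM with sh-control, compared to 16.4, 18.7 and 16.4 CPM in the sh-*RREB1*-labelled libraries. The groups overlapped, and sh-control replicate 1 was the lowest of all 6 libraries. The log2 fold change was −0.07 (standard error 0.19), and −0.33 after GC correction.

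*TNFAIP3* encodes A20, which edits and removes ubiquitin chains in the pathway (ENSG00000118503, chromosome 6, 137867214 to 137883314). Its level was 7.16, 8.05 and 8.04 CPM with sh-control, compared to 6.36, 6.27 and 5.78 CPM in the sh-*RREB1*-labelled libraries, lower in each of the latter. The difference was small, with a log2 fold change of −0.33 (standard error 0.16), −0.32 after GC correction, and no call. *BIRC3*, *NFKBIA*, *TNFAIP3*, *NFKB1* and *NFKB2*, the genes with NF-kappaB letters shown above, thus had log2 fold changes of −2.19, −0.07, −0.33, −0.03 and 0.53.

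*TRAF2*, which brings cIAP1 and cIAP2 to the receptor, lies on chromosome 9 from 136881912 to 136926607 (ENSG00000127191). Its level was 3.30, 9.05 and 11.4 CPM with sh-control, compared to 13.9, 24.1 and 16.3 CPM in the sh-*RREB1*-labelled libraries. Each of the latter was above the highest sh-control library, and sh-control replicate 1 was lower than the other sh-control libraries by a log2 difference of −1.61. The log2 fold change was 1.19 (standard error 0.40) and did not pass the adjusted p threshold. Leaving out sh-control replicate 1 gave 0.79, leaving out sh-*RREB1* replicate 3 gave 1.26, and the value was 0.26 after GC correction, and the median of the tenth of genes with its GC content (61.3%) was 1.13.

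Of the 10 genes 1 was called, beside 3.38% of all genes tested, 3 had no overlap and were lower (*BIRC2*, *BIRC3* and *TNFAIP3*), 3 had no overlap and were higher (*NFKB2*, *RELA* and *TRAF2*), and 4 overlapped. Non-overlap in 6 of 10 genes is set beside the 40.9% of all genes in which it occurred. The median log2 fold change of the 10 genes was −0.11, and −0.22 after GC correction, beside 0.01 and −0.02 for all genes tested. The 3 genes that were higher without overlap had a GC content of 58.3% to 61.6%, and after correction their values were −0.56, −0.04 and 0.26. *BIRC3* and *TNFAIP3* were the genes without overlap whose values moved least in proportion. Without sh-*RREB1* replicate 3 the other values were −0.43 for *BIRC2*, −0.20 for *XIAP*, 0.03 for *NFKB1*, 0.63 for *NFKB2*, 0.71 for *RELA*, −0.37 for *RELB*, −0.03 for *NFKBIA* and −0.30 for *TNFAIP3*, so that the direction turned in *NFKB1* alone among the 10.

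**Figure D2:**
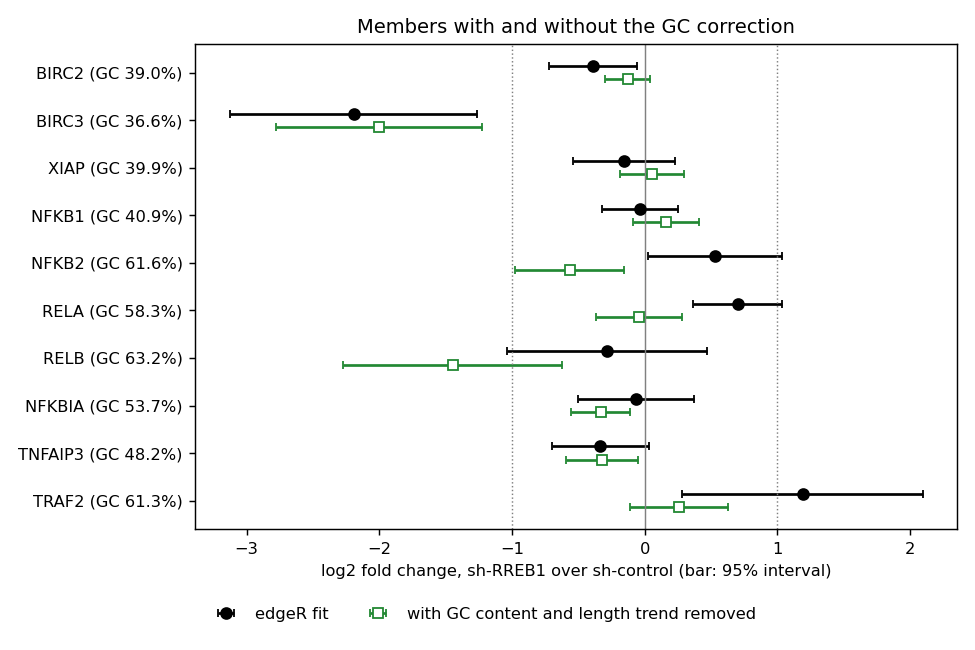
Log2 fold change (horizontal axis, sh-RREB1 over sh-control) of the 10 genes with 95% confidence intervals, before (black circles) and after (open green squares) removal of the trend on GC content and length. Dotted lines mark the fold threshold of a call. BIRC3 stays near −2 under both (−2.19 and −2.0), whereas TRAF2 moves from 1.19 to 0.26 and RELB from −0.28 to −1.45.

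**Figure D3:**
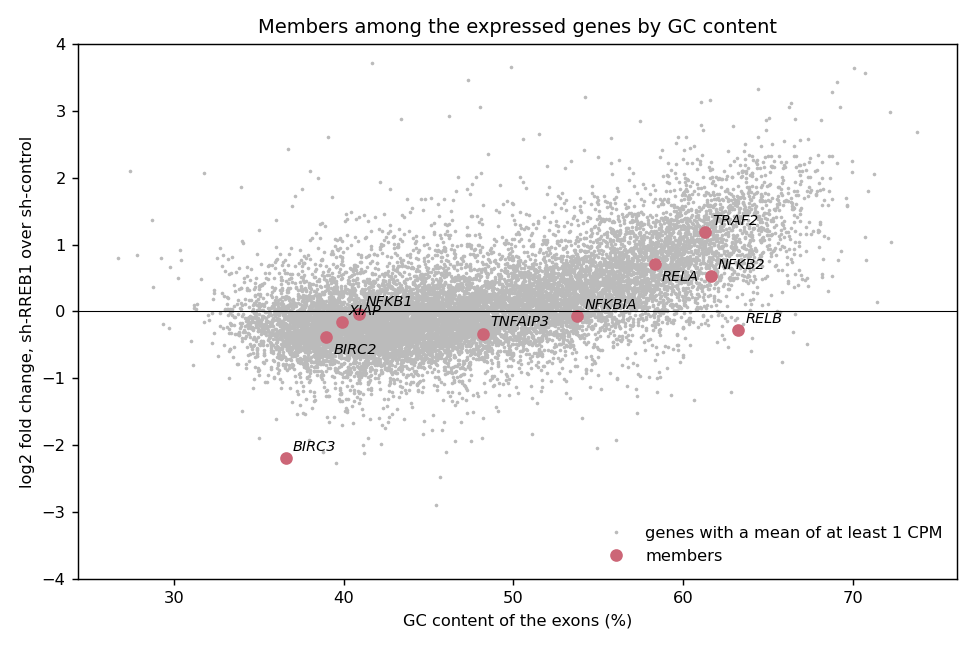
Log2 fold change (vertical axis) against the GC content of the exons in percent (horizontal axis) for 14483 genes with a mean of at least 1 CPM (grey), of which 5 lie outside the axis, and for the 10 genes (red). The grey cloud climbs with GC content, TRAF2 lies within it at 61.3% and BIRC3 lies below it at 36.6%. RELB, at 63.2%, has a mean below 1 CPM and is not among the grey genes. Its value of −0.28 is below the median of 1.13 in the tenth of genes with similar GC content.

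Levels between genes were compared per length, as CPM per kilobase of exon in the 3 sh-control libraries. *BIRC2* was the highest of the 10 at 25.9 ± 1.78 CPM per kilobase (SD, n = 3), followed by *XIAP* at 17.4 ± 0.978 and *NFKBIA* at 5.29 ± 1.17. Then came *RELA* at 2.71 ± 0.264, *NFKB1* at 2.35 ± 0.0636, *TRAF2* at 2.16 ± 1.13, *TNFAIP3* at 1.2 ± 0.0789 and *NFKB2* at 1.06 ± 0.144. *BIRC3* and *RELB* were lowest at 0.248 ± 0.0594 and 0.218 ± 0.0545. The ranges of neighbours in this order overlapped for *NFKB1* and *TRAF2*, for *TRAF2* and *TNFAIP3*, for *TNFAIP3* and *NFKB2*, and for *BIRC3* and *RELB*. These pairs did not differ beyond their spread. The range of *TRAF2* (0.900 to 3.10) also took in those of *RELA* and *NFKB2*, so it did not differ from them beyond its spread either. With the length of the canonical transcript in place of all exons, chosen after the data had been seen, *NFKB1* passed *RELA*, *NFKB2* passed *TNFAIP3* and *RELB* passed *BIRC3*.

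**Figure D4:**
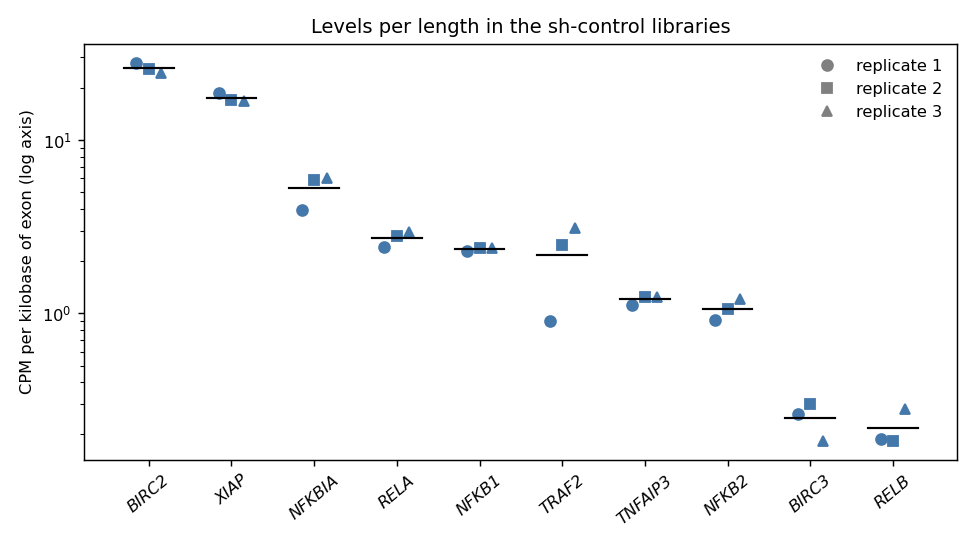
Level of each gene in the sh-control libraries in CPM per kilobase of exon (vertical log axis), ordered by the mean (line). Marker shapes are replicates. The 10 genes span from 25.9 for BIRC2 to 0.218 for RELB, and BIRC3 at 0.248 is near the bottom.

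The genes whose levels ran most like that of *BIRC3* over the 6 libraries were sought among 14508 genes with a mean of at least 1 CPM, by the root mean square distance of log2 CPM centred on its mean. The nearest were *CDYL2* (0.453), *ZNF813* (0.470), *ZNF233* (0.509), *OLFML1* (0.543) and *ZNF28* (0.546). *ZNF813*, *ZNF233* and *ZNF28* encode zinc finger proteins. The log2 fold changes of the 5 genes, in the order above, were −2.47, −1.67, −1.83, −2.11 and −2.0. After GC correction they were −2.40, −1.43, −1.67, −1.98 and −1.75. The 5 were picked for closeness to *BIRC3* over the same libraries, so similar fold changes follow from the choice and are no test. *CDYL2* had a level of 1.61, 1.80 and 1.84 CPM with sh-control, compared to 0.362, 0.306 and 0.238 CPM in the sh-*RREB1*-labelled libraries. None of the 5 is an IAP or NF-kappaB gene.

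The rest of the pathway was examined with lists of genes grouped by role. Among 6 further factors and IkappaB proteins, all measured, none was called by edgeR, while DESeq2 called 1. At an adjusted p below 0.05 with the same fold, edgeR called 0. The median log2 fold change of the 6 was 0.02, and −0.48 after GC correction. *NFKBIB*, for IkappaB-beta, had 1.05 (standard error 0.32, 0.23 after correction), *REL*, for c-Rel, had −0.43 (standard error 0.17, −0.24 after correction), and *NFKBID*, a nuclear IkappaB protein gene, had 0.11 (standard error 0.21). The direction of *NFKBID* turned with the correction, to −0.73. At an unadjusted p below 0.05 there were 2 of the 6, as there were 34.1% of all genes tested.

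Among 24 kinases, adaptors and ubiquitin enzymes, all measured, none was called by edgeR and 4 by DESeq2, and 4 by edgeR at an adjusted p below 0.05, with a median of 0.19 and −0.01 after GC correction. At an unadjusted p below 0.05 there were 15 of the 24, beside 34.1% of all genes tested. Of all 23506 genes DESeq2 called 1652, and edgeR called 2034 at an adjusted p below 0.05. The largest differences were in *IKBKG*, for NEMO, the regulatory subunit of the IkappaB kinase, at 1.53 (standard error 0.39), in *SHARPIN*, of the linear ubiquitin ligase, at 1.24 (standard error 0.32), and in *TNIP2*, for an A20-binding protein, at 1.19 (standard error 0.27). After correction they were 0.58, 0.02 and 0.31. *IKBKG* has a near-identical pseudogene copy, so its count is uncertain. *RIPK1*, for the kinase that cIAP proteins ubiquitinate, was the 1 gene of the list past the adjusted p threshold, chosen here after its values were seen. Its level was 69.0, 76.8 and 72.1 CPM with sh-control, compared to 39.4, 45.8 and 40.2 CPM in the sh-*RREB1*-labelled libraries. All of the latter were lower. Its log2 fold change of −0.80 (standard error 0.12, edgeR adjusted p = 0.00488) was −0.79 after correction, and it missed the fold threshold.

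Among 19 TNF family ligands and receptors 13 were measured and 2 were called by edgeR and 2 by DESeq2, the edgeR calls both higher, beside 2.69% of all genes called higher. At an adjusted p below 0.05 edgeR called 2 higher and 1 lower. An unadjusted p below 0.05 was found in 4 of the 13, beside 34.1% of all genes tested. The list had a median of 0.10 and −0.02 after GC correction. *TNFRSF12A*, for the TWEAK receptor, had a level of 1.61, 2.43 and 2.58 CPM with sh-control, compared to 9.46, 9.83 and 9.35 CPM in the sh-*RREB1*-labelled libraries. It rose by a log2 fold change of 2.10 (standard error 0.21, edgeR adjusted p = 0.00182), and after GC correction the value was 0.94, below the fold threshold. *TNFRSF21*, for death receptor 6, had a level of 5.78, 5.11 and 5.98 CPM in sh-control and rose to 15.9, 16.2 and 13.8 CPM. This was a log2 fold change of 1.44 (standard error 0.16, edgeR adjusted p = 0.00227), and 1.37 after correction, still called. Both calls were lost without sh-control replicate 2 (2.14 and 1.35), sh-*RREB1* replicate 1 (2.11 and 1.42) or sh-*RREB1* replicate 3 (2.12 and 1.51). Over all genes, those fits called only 9, 25 and 8 genes, against 794 with all libraries. After GC correction *TNFRSF21* was called in 6 of 6 fits that left out a library (1.26 to 1.46) and *TNFRSF12A* in 2 of 6 (0.79 to 1.06). The ligand genes *TNF*, *LTA*, *LTB* and *FASLG* and the receptor genes *LTBR* and *TNFRSF10A* had at most 3 reads in every library.

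Among 26 target genes of NF-kappaB 18 were measured, and none was called by edgeR, also at an adjusted p below 0.05, or by DESeq2. The median was −0.05 and −0.24 after GC correction, and 7 had values above 0 and 11 below. An unadjusted p below 0.05 was found in 7 of the 18, beside 34.1% of all genes tested. The largest differences at a mean of 1 CPM or more were in *MAP3K8*, for a kinase bound by p105, at −0.80 (standard error 0.23), in *IER3*, an immediate early gene, at 0.78 (standard error 0.20), and in *PTX3*, for a pentraxin, at 0.69 (standard error 0.28). After GC correction they were −0.65, 0.11 and 0.81. *CXCL10*, *CCL5*, *CCL20*, *VCAM1*, *BCL2A1*, *EBI3* and *CSF2* had at most 3 reads in every library, and *CCL2* at most 6.

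Genes of apoptosis were examined in the same way. Of 4 other BIR domain genes 3 were measured and none was called by edgeR, also at an adjusted p below 0.05, or by DESeq2, with 1 at an unadjusted p below 0.05. *BIRC6*, for a giant ubiquitin enzyme, had −0.42 (standard error 0.11, −0.25 after correction), and *BIRC5*, for survivin, a mitotic protein, had −0.01 (standard error 0.15, −0.06 after correction). The median of the 3 was −0.42 and −0.25 after GC correction. *BIRC7* had no reads in any library. Of 14 caspases, IAP antagonists and death adaptors 13 were measured and none was called by edgeR, at an adjusted p below 0.05 either, or by DESeq2, with 3 at an unadjusted p below 0.05. *APAF1*, the scaffold of the apoptosome, had −0.85 (standard error 0.13, edgeR adjusted p = 0.00467), past the p threshold and short of the fold threshold, and −0.64 after correction. The median of the 13 was −0.08 and −0.30 after GC correction. *CASP6*, a caspase, had −0.55 (standard error 0.14, −0.39 after correction), and *CASP10*, another, had −0.40 (standard error 0.19, −0.30 after correction). *XAF1*, for an antagonist of XIAP, had at most 3 reads in every library.

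All 14 genes of the BCL2 family were measured, and 2 of the 14 were called by edgeR, both higher, beside 2.69% of all genes. DESeq2 called 3, edgeR called 3 at an adjusted p below 0.05, and 6 of the 14 had an unadjusted p below 0.05. Of all 23506 genes DESeq2 called 1652, edgeR called 2034 at an adjusted p below 0.05, and 34.1% had an unadjusted p below 0.05. *HRK* and *BBC3*, called by edgeR, encode BH3-only proteins, which promote cell death. *HRK* had a level of 3.52, 3.60 and 3.05 CPM with sh-control and rose to 9.70, 11.4 and 9.98 CPM, by a log2 fold change of 1.62 (standard error 0.17, edgeR adjusted p = 0.00206), 1.55 after GC correction. *BBC3*, for PUMA, had a level of 0.174, 0.772 and 0.685 CPM in sh-control and rose to 2.58, 2.72 and 2.14 CPM. This was a log2 fold change of 2.15 (standard error 0.39, edgeR adjusted p = 0.00898), and 0.93 after correction, where it was not called. The call of *HRK* was lost without sh-control replicate 2 (1.63), sh-*RREB1* replicate 1 (1.66) or sh-*RREB1* replicate 3 (1.64). Over all genes, those fits called only 9, 25 and 8 genes. That of *BBC3* was kept only without sh-control replicate 1 (1.74), a fit that called 1118 genes. The other values of *BBC3* were 2.41 and 2.31 without sh-control replicates 2 and 3, and 2.13, 2.08 and 2.23 without sh-*RREB1* replicates 1, 2 and 3. After GC correction *HRK* was called in 6 of 6 fits that left out a library (1.44 to 1.61) and *BBC3* in 0 of 6 (0.82 to 1.16). The median of the family was 0.45, and −0.02 after correction.

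**Figure D5:**
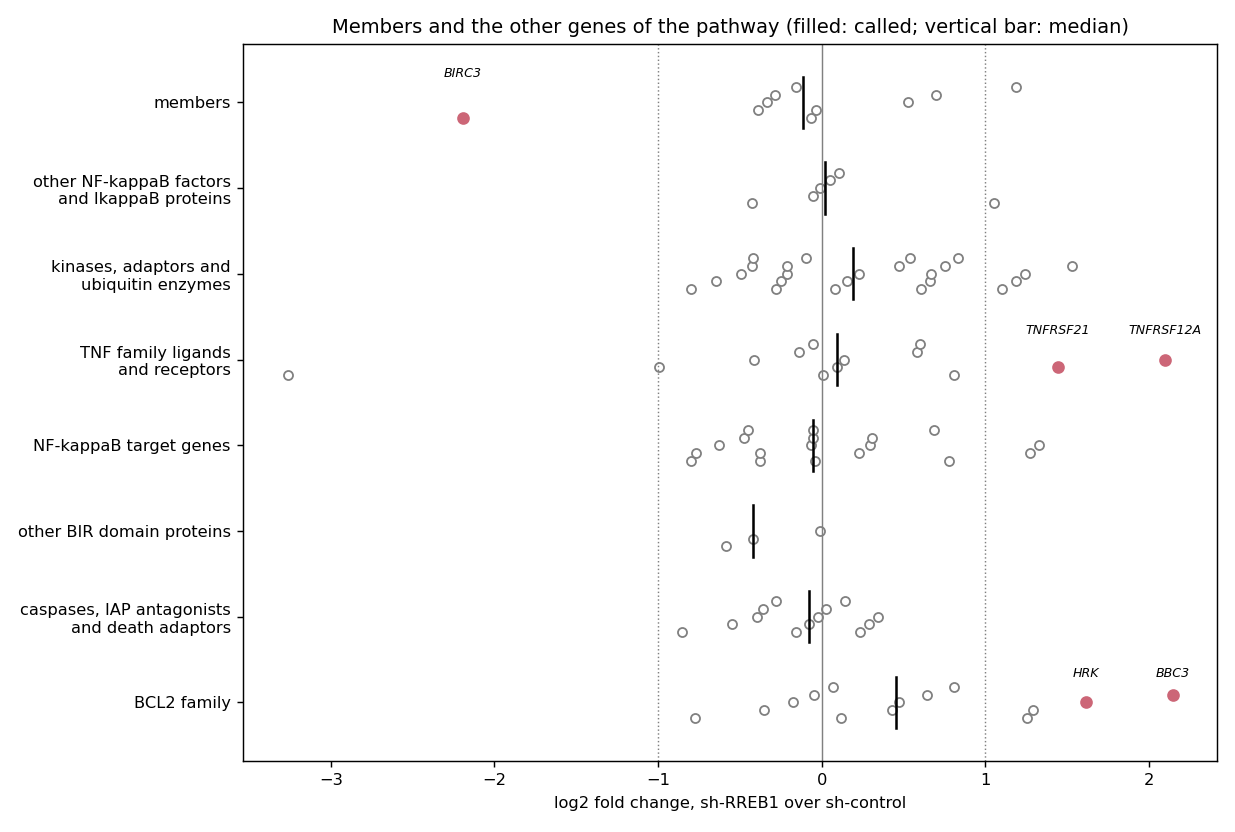
Log2 fold change (horizontal axis, sh-RREB1 over sh-control) of each measured gene by list, with called genes filled and named, vertical bars at list medians and dotted lines at the fold threshold. BIRC3 is the called gene that is lower (−2.19), and TNFRSF21, TNFRSF12A, HRK and BBC3 are the called genes that are higher. The open point furthest to the left is TNFSF10, which had 5, 4 and 7 reads with sh-control, compared to 0, 1 and 0 in the sh-RREB1-labelled libraries.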

How the data were processed

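RNA-seq of 6 HEK293T libraries was used, 3 per group. The authors used STAR 2.4.2a with hg38 and the Gencode 25 annotation, and deposited for each library the counts of reads on each gene, not normalized, and a merged table of the same counts. Counts on the gene's strand were used, since the labels name a stranded kit. Lines for reads on no gene (8853232 to 13201426 per library) entered neither library sizes nor tests. Of 58037 identifiers, 45 pseudoautosomal duplicates were dropped, and of identifiers sharing a symbol the one with most reads was kept.

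Genes with at least 10 reads in total were tested with edgeR 4.0.16 (quasi-likelihood, TMM, condition only) in R 4.3.3, with Benjamini-Hochberg adjustment. DESeq2 1.42.0, the tool of the study in another version, was an alternative. Gencode 44 on GRCh38 gave gene positions, the length of exons and their GC content. Trends on GC content and length were fitted per library with natural splines (5 degrees of freedom) and removed as an offset. Intervals are at 95%.

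The members and the gene lists were chosen with earlier results of these data known. Named genes were the 10 members, *RREB1*, the called genes of each list or, where none was called, the 3 with the largest absolute log2 fold change at a mean of at least 1 CPM, genes with at most 3 reads in every library, and the 5 genes nearest to *BIRC3* in pattern. *RIPK1*, *MAP3K14*, *TNFSF10*, *CCL2* and the chromosomal neighbours of *BIRC3* were named outside this rule, after values had been seen. Other filters, scalings and thresholds, both strands together, the replicate number as a block and each library left out in turn were also tried. No 2 libraries of the same group were alike within sampling noise. The ChIP-seq of the study was not analysed here.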

Additional observations from a re-analysis of the deposited data

Results flagged for a closer look

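*TRAF2* had 9 reads in all on the strand opposite the gene, which the comparisons did not use. There were 2, 4 and 1 reads in sh-*RREB1*-labelled replicates 1, 2 and 3, and 0, 0 and 2 reads in sh-control. Only after scaling to library size was each sh-*RREB1*-labelled library above each sh-control library. In replicate 3 this rests on 1 read, in the shallowest library, which had the most reads on opposite strands. The difference was not tested.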

How the results depend on the processing

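The log2 fold change of *BIRC3* ran from −2.84 to −1.76 over all alternatives, those with a GC correction and a library left out included, but its call was not kept with edgeR's own filter on low counts (−2.14) or with both strands counted together (−2.19), and with 1 library left out the value ran from −2.84 to −1.96. The number of members called was 2 with genes of at least 1 read and with the replicate block, where *TRAF2* was added, and 0 with edgeR's filter and with both strands, and it ran from 0 to 1 with a library left out. Genes called over all genes numbered 1652 with DESeq2, 1822 with genes of at least 1 read, 1698 with the replicate block, 2034 at an adjusted p below 0.05, 1277 with no minimum fold change, and 8 to 1118 with a library left out. Of the calls 73.1% were higher with upper quartile scaling. Among the other NF-kappaB genes 7 were called with DESeq2, with genes of at least 1 read, with the replicate block and at an adjusted p below 0.05, 1 with the GC correction and 1 with the block and GC correction together, and 0 to 2 with a library left out. Among the other apoptosis genes 1 was called with both strands, with the GC correction and with the block and GC correction, and 0 to 2 with a library left out. The log2 fold change of *RREB1* ran from −0.20 to −0.12 with a library left out and no GC correction. It was −0.36 (edgeR adjusted p = 0.0537) with the GC correction and −0.37 (edgeR adjusted p = 0.0110) with the block and GC correction. *RREB1* passed 0.01 in no alternative examined for it (adjusted p 0.0110 to 0.693). The GC-corrected fits with a library left out were not examined for this gene. The cause of these shifts was not tested. The replicate numbers were not taken as pairs in the main fit. Same-numbered libraries correlated at 0.487, 0.383 and −0.276 in their deviations from the group means over 14509 genes. Replicate 3 of sh-control correlated best with sh-*RREB1* replicate 2 (0.550). These values cannot settle whether the samples were paired, since deviations from a mean of 3 libraries depend on each other. Depth limited *BIRC3* and *RELB*, which had at most 61 and 27 reads in a library.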
